A study of Mus musculus with 18 samples.

Results

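The quantity examined here is a difference of 2 differences: the change in a gene's expression from the sham procedure to sciatic nerve injury, minus its change from laminectomy to dorsal column injury, for every gene in dorsal root ganglia 24 hours after surgery. It was formed from 12 of the 18 samples of the series, 3 in each of 4 groups, and was tested for all 15730 genes of the deposited count table. SNA_Saline is sciatic nerve injury with saline, Sham_Saline is the sham procedure with saline, DCA is injury of the dorsal columns of the spinal cord, and LAM is laminectomy, the removal of vertebral bone that exposes the cord. The labels name no saline for DCA or LAM. Another 6 samples were 3 of SNA_NAC (sciatic injury with the antioxidant N-acetyl-cysteine at 30 mM) and 3 of Sham_H2O2 (sham procedure with 13 mM hydrogen peroxide). They form a sciatic pair that the difference does not use, but they entered the same fit and its estimate of the spread. All samples came from C57BL/6 mice of 6 to 8 weeks, each pooled the sciatic ganglia of 2 mice, and the replicate number equals the sequencing lane. The ganglia were sequenced whole, so injured and uninjured neurons, glia and other cells were mixed, and fewer cells of a type cannot be told apart from less RNA per cell. A positive difference means that expression moved upward more, or downward less, after sciatic injury than after dorsal column injury.

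Each sensory neuron of a dorsal root ganglion has an axon that divides into a peripheral branch, which runs in nerves such as the sciatic, and a central branch, of which some fibres ascend in the dorsal columns. Injury of the peripheral branch is known to switch on transcription factors such as Atf3, Jun and Sox11, growth-associated proteins and neuropeptides, and to precede regrowth. Injury of the central branch in the cord is known for a weaker response in the cell body and for poor regrowth. The difference of differences asks directly which genes separate the 2 responses, and since it has 4 terms it also asks which of the 4 groups carries each gene.

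The 2 responses differed in 254 of 15730 genes, which is 1.61% of those tested (edgeR quasi-likelihood test, Benjamini-Hochberg adjusted p under 0.05). The difference was positive in 193 genes (1.23% of those tested) and negative in 61 genes (0.388%). Genes with the largest positive differences encoded a growth-arrest and stress protein (Gadd45a), receptors and adhesion molecules (Gpr151, Procr, Flrt3), and secreted signals (Il6, Npy, Areg, Ccl7). The negative genes included the nociceptin receptor gene Oprl1 and the neurotrophin gene Ntf3, and had a median mean count of 105 per sample against 524 for the positive ones. Over all genes the median difference was -0.02 in log2 units, and 4933 genes (31.4%) had an unadjusted p under 0.05, so such counts in the lists below are read against that share. Counts of list members past the adjusted threshold are read against the 1.61% of all genes, 1.23% positive and 0.388% negative. The genes nearest to the threshold inside it were 2810403A07Rik, Gm13425 and Nipsnap3b, with adjusted p-values of 0.0498964, 0.049965 and 0.0499812, and those nearest outside it were Wisp1, Fads3 and Ttc38, each with 0.0504.

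**Figure D1:**
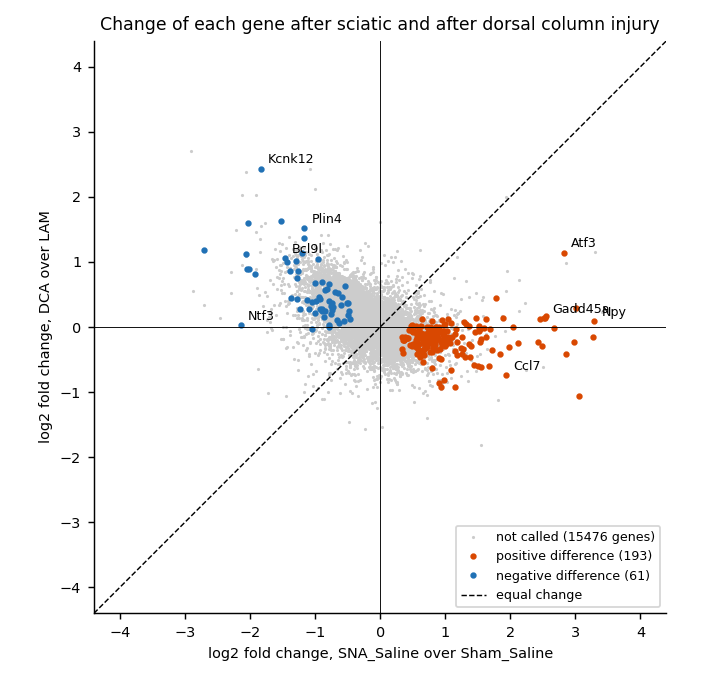
Log2 fold change of each of the 15730 genes in SNA_Saline over Sham_Saline (x axis) against its log2 fold change in DCA over LAM (y axis), with the 193 positive and 61 negative genes coloured and the dashed line marking equal change. The positive genes lie to the right of 0 on the x axis and close to 0 on the y axis, where their medians were 0.86 and -0.18, while the negative genes also lie above 0 on the y axis, with medians of -0.92 and 0.44.

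SNA_Saline was the group that set most of the positive genes apart. Of the 193 positive genes, 178 had SNA_Saline as the group whose mean log2 level lay farthest from the mean of the other 3 groups, always on the high side. In 170 of the 193, all 3 SNA_Saline samples lay above the other 9 samples. Over all genes tested, all 3 SNA_Saline samples lay above the other 9 in 4.0%, which is 629 genes, and below them in 2.03%, and SNA_Saline was the farthest group in 26.1%. Sham_Saline on the low side was farthest in 12 positive genes, DCA on the low side in 2 (Ccl2 and Cstf2t) and LAM on the high side in 1 (Itgae). The median log2 change of the 193 genes was 0.86 in SNA_Saline over Sham_Saline and 0.92 in SNA_Saline over DCA, and -0.13 in Sham_Saline over LAM. These contrasts share samples with the difference and describe it, and they are not separate evidence for it.

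The negative genes were divided between the injured and the sham sciatic group. SNA_Saline on the low side was farthest in 32 of the 61, Sham_Saline on the high side in 24, LAM on the low side in 3 (Kcnk12, Hvcn1 and Klhl36, the last named after its values were seen) and DCA on the high side in 2 (Plin4 and Chad). All 3 SNA_Saline samples lay below the other 9 in 25 of the 61. All 3 Sham_Saline samples lay above the other 9 in 3 of the 61, against 0.655% of all genes. Their median log2 change was -0.92 in SNA_Saline over Sham_Saline, -0.77 in SNA_Saline over DCA and 0.62 in Sham_Saline over LAM, so in these genes the median gap between the controls was close to that between the injuries. Among all genes Sham_Saline was the farthest group most often, in 37.1%, followed by LAM in 27.1% and DCA in 9.75%.

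**Figure D2:**
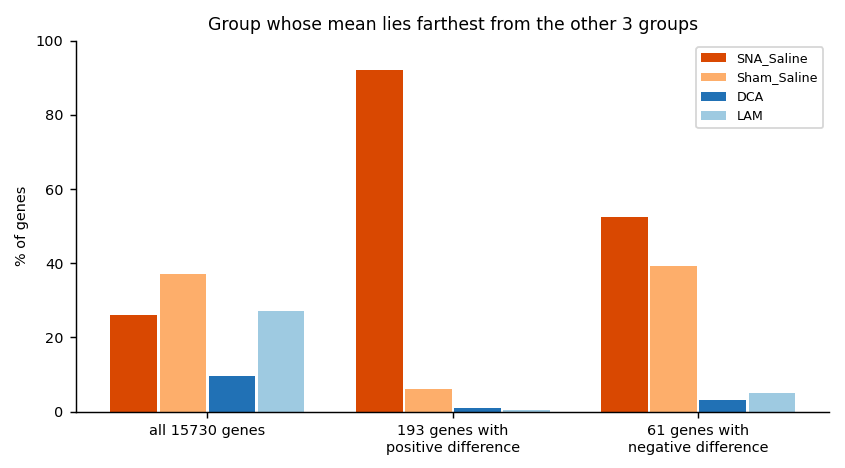
Percentage of genes (y axis) for which each of the 4 groups had the mean log2 level farthest from the mean of the other 3, for all 15730 genes, the 193 genes with a positive difference and the 61 with a negative one. SNA_Saline holds 92.2% of the positive genes, while the negative genes are shared between SNA_Saline with 52.5% and Sham_Saline with 39.3%.

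The component contrasts show the same imbalance. SNA_Saline against Sham_Saline had 430 genes with an edgeR adjusted p under 0.05 (2.73% of those tested), and it included 182 of the 193 positive and 38 of the 61 negative genes. DCA against LAM had 0 (0%) in edgeR, with 793 (5.04%) at an unadjusted p under 0.05 and 2 in the DESeq2 Wald test, and among them were 35 of the positive and 30 of the negative genes at an unadjusted p under 0.05. SNA_Saline against DCA had 465 (2.96%), with 168 of the positive and 21 of the negative genes. Sham_Saline against LAM had 11 (0.0699%). Of these, Atf3, Gpr151, Tmem88b, Igfbp3 and Smim3 were higher in Sham_Saline and had positive differences, Saa1 was lower in Sham_Saline with a positive difference, and Kcnk12 was higher in Sham_Saline with a negative one. Of the negative genes, 19 passed in neither SNA_Saline against Sham_Saline nor SNA_Saline against DCA, so that only the sum of the 4 terms carried them past the threshold, compared with 8 of the positive genes.

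The number of genes depended on single libraries. Total counts ran from 9467654 (SNA_Saline replicate 2) to 29572853 (LAM replicate 3). Without Sham_Saline replicate 1, 2 or 3 the count was 4600, 89 or 204. Without SNA_Saline replicate 1, 2 or 3 it was 55, 85 or 528, without LAM replicate 1, 2 or 3 it was 75, 87 or 78, and without DCA replicate 1, 2 or 3 it was 160, 160 or 69. The positive genes ranged from 53 to 1934 in these fits, the negative ones from 2 to 2666, and the lowest and highest came without SNA_Saline replicate 1 and without Sham_Saline replicate 1 (the lowest negative count also without DCA replicate 3). With the replicate number, which is the lane, as a block the counts were 107 positive and 11 negative, 118 in all; below, an adjusted p from that fit is given as "blocked" wherever a gene that passed no longer did. DESeq2 gave 701 positive and 1022 negative genes, together 12.4% of the 13899 to which it gave an adjusted p, so 40.7% were positive against 76.0% in edgeR. Among the component contrasts, SNA_Saline against Sham_Saline had 2548 genes without Sham_Saline replicate 1, 233 without its replicate 2, and 174 or 207 without SNA_Saline replicate 1 or 2. SNA_Saline against DCA had 266 or 275 without SNA_Saline replicate 1 or 2 and 294 or 279 without DCA replicate 1 or 3. Sham_Saline against LAM had 5009 without Sham_Saline replicate 1, 6 or 4 without its replicate 2 or 3, and 7, 6 or 4 without LAM replicate 1, 2 or 3. In all, 52 of the 193 positive genes and 1 of the 61 negative genes (A3galt2) passed in each of the 22 alternative fits that tested them, while 193 and 60 kept their sign in each. The fit without a count filter, 1 of these 22, equals the main fit because the filter removed no gene, so it adds no check here or below.

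Sham_Saline was the most variable group, with a median gene SD of 0.295 in log2 CPM (read counts scaled to a common library size after TMM normalization) against 0.204 in DCA, 0.183 in SNA_Saline and 0.120 in LAM. Its replicate 2 had the steepest slope of log2 CPM on a gene's GC share, 0.43 per SD of GC share, where the other 11 libraries lay between -0.19 and 0.25. The same library had a summed level of 2378 CPM over 19 skeletal muscle markers, against 154 to 757 CPM in the other 11. The negative genes had a median GC share of 55.1%, all genes 49.6% and the positive genes 46.6%. A fit that also modelled each library's dependence on GC share and length gave 540 positive and 257 negative genes, together 5.09% of 15648 tested; this alternative was added after the results had been seen. The part of GC share and of muscle RNA in individual results was not tested beyond these fits.

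Transcription factors known for the injury response of sensory neurons formed the list with the highest share of positive genes. Of its 18 measured members, 6 had a positive difference past the threshold (Atf3, Jun, Smad1, Klf6, Crem and Fosl2, against 1.23% of all genes), 0 a negative one (0.388% of all genes), 14 lay above 0, and the median difference was 0.93 against -0.02 over all genes. The medians were 0.74 in SNA_Saline over Sham_Saline and -0.06 in DCA over LAM. Between the 3 lanes the list's median ran from 0.65 to 0.96. SNA_Saline was the farthest group in 14 of the 18.

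Atf3 (chr1:191170296-191218039, minus strand, in mm10), a stress-induced factor that marks injured sensory neurons, was at 449.8, 420.0 and 462 CPM in SNA_Saline, 55.9, 72.6 and 59.4 in Sham_Saline, 24.96, 39.6 and 28.2 in DCA and 12.2, 12.4 and 16.9 in LAM. The 4 groups did not overlap and formed a staircase from LAM through DCA and Sham_Saline to SNA_Saline. Its difference was 1.68 ± 0.25 (SE, log2; edgeR adjusted p = 0.00229), although its change in DCA over LAM, 1.14, was larger than that of any other named positive gene (edgeR adjusted p = 0.172). Sham_Saline exceeded LAM by 2.17 in log2 units (edgeR adjusted p = 4.09e-05), so the level under the sciatic control was already above that after dorsal column injury.

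Jun, a component of the AP-1 factor that partners with Atf3, showed no such staircase. Its samples were at 152, 151 and 143 CPM in SNA_Saline, 57.9, 78.5 and 63.3 in Sham_Saline, 70.1, 71.4 and 58.8 in DCA and 61.1, 66.9 and 75.03 in LAM, with SNA_Saline above all others and the remaining 3 groups overlapping. Jun differed by 1.18 ± 0.17 (SE, log2; edgeR adjusted p = 0.00155). Klf6, a zinc-finger factor linked to axon growth, was at 164 to 201 CPM in SNA_Saline, 73.4 to 94.4 in Sham_Saline, 75.5 to 88.5 in DCA and 83.7 to 94.4 in LAM, and differed by 1.26 ± 0.18 (SE; edgeR adjusted p = 0.00111). Smad1, which carries signals of bone morphogenetic proteins, lay at 69.00 to 74.7 CPM in SNA_Saline, 38.5 to 41.9 in Sham_Saline, 38.00 to 46.2 in DCA and 42.4 to 47.2 in LAM, a difference of 0.97 ± 0.14 (SE; edgeR adjusted p = 0.00147). In both, SNA_Saline lay above all other samples and the log2 change in DCA over LAM was close to 0, at -0.11 and -0.10. In Smad1 each Sham_Saline sample also lay below each LAM sample. Sox11, a developmental factor with a difference of 1.98, did not pass (edgeR adjusted p = 0.0572), and Stat3 had -0.06. Members that did not pass are named here and below as examples chosen after their values were seen.

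**Figure D3:**
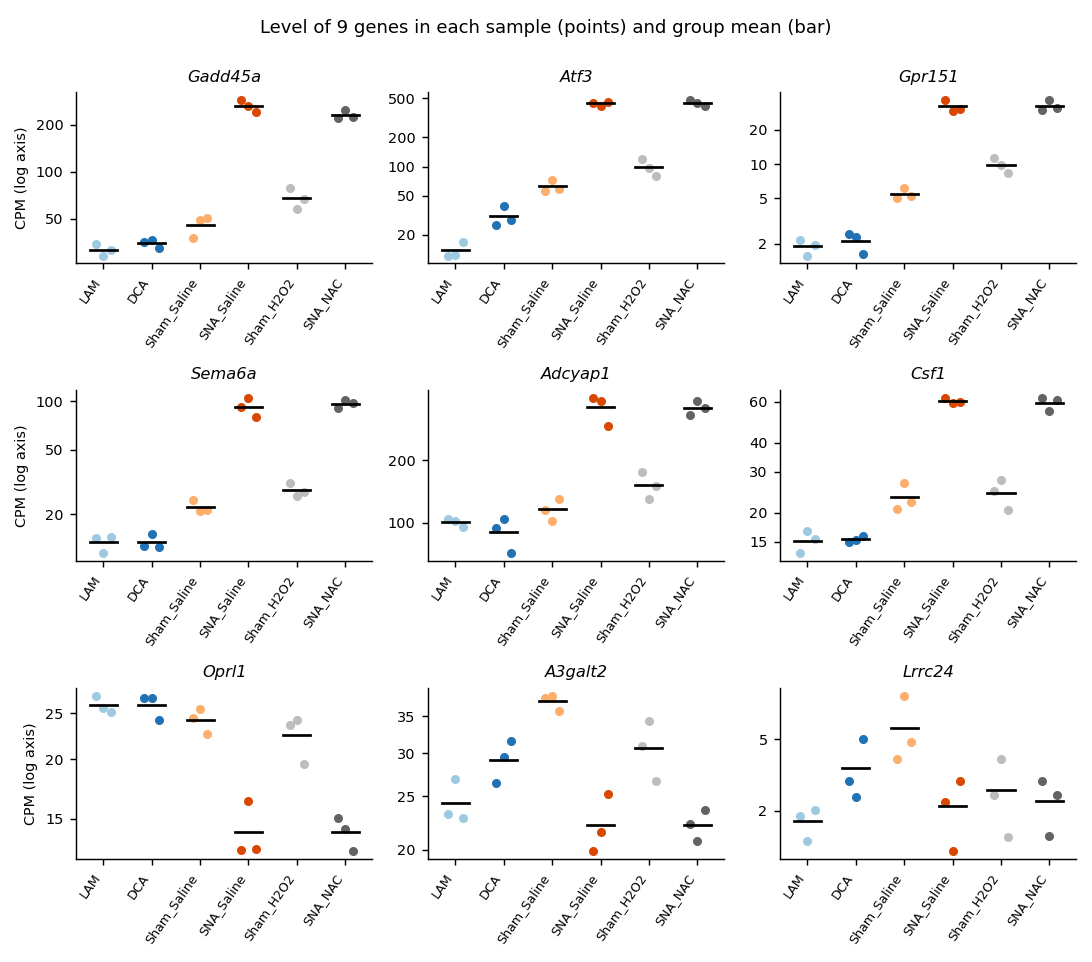
Level in CPM (log axis) of 9 genes in each sample of the 4 groups of the contrast and of Sham_H2O2 and SNA_NAC, with points for samples and bars for group means. In Gadd45a, Atf3, Gpr151, Sema6a, Adcyap1 and Csf1 the SNA_Saline points lie above all 9 samples of Sham_Saline, DCA and LAM, in Oprl1 they lie below them, and in A3galt2 and Lrrc24 Sham_Saline has the highest mean.

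Gadd45a (chr6:67035096-67037457, minus strand), which acts in growth arrest, DNA repair and demethylation, had the smallest p of all genes. It was at 288, 264 and 241 CPM in SNA_Saline, 37.9, 48.9 and 50.4 in Sham_Saline, 35.5, 36.5 and 32.3 in DCA and 34.5, 29.1 and 31.5 in LAM, and the SNA_Saline samples lay more than 4-fold above every other sample. The difference was 2.39 ± 0.18 (SE, log2; edgeR adjusted p = 6.97e-06). It arose from a change of 2.53 in SNA_Saline over Sham_Saline and 0.14 in DCA over LAM. Each Sham_Saline sample also lay above all of DCA and LAM. Pmaip1, a mitochondrial cell-death protein and p53 target, was at 11.8 to 14.6 CPM in SNA_Saline, 3.20 to 4.24 in Sham_Saline, 2.82 to 4.18 in DCA and 2.79 to 3.63 in LAM, with a difference of 1.75 ± 0.31 (SE; edgeR adjusted p = 0.0112). These were the only 2 genes past the threshold in a list of 25 p53 targets, Gadd45 and cell-death genes, against 1.61% of all genes. The list's median difference of -0.06 was near that of all genes.

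Growth-associated effectors, the structural and surface proteins of regrowing axons, had 3 positive genes of 28 measured (Flrt3, Lmo7 and Plaur, against 1.23% of all genes), 0 negative and a median difference of 0.53. Flrt3, a leucine-rich adhesion protein and ligand of Unc5 receptors, was at 159, 162 and 122 CPM in SNA_Saline, 31.4, 23.8 and 25.4 in Sham_Saline, 19.7, 27.2 and 15.2 in DCA and 18.4, 17.1 and 20.8 in LAM. SNA_Saline stood far above the other 3 groups, and the difference was 2.34 ± 0.28 (SE, log2; edgeR adjusted p = 4.98e-04). Lmo7, a protein of cell junctions and the nuclear envelope, lay at 20.8 to 25.3 CPM in SNA_Saline, 6.45 to 7.96 in Sham_Saline, 4.96 to 7.26 in DCA and 5.64 to 6.88 in LAM, and differed by 1.61 ± 0.22 (SE; edgeR adjusted p = 0.00102). Plaur, the receptor of urokinase plasminogen activator, was at 18.7 to 25.4 CPM in SNA_Saline, 5.34 to 9.94 in Sham_Saline, 3.36 to 4.31 in DCA and 3.21 to 3.74 in LAM, a difference of 1.51 ± 0.31 (SE; edgeR adjusted p = 0.0260) with Sham_Saline also above DCA and LAM.

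The best known markers of this list did not pass. Sprr1a, a small proline-rich protein induced in injured neurons, was at 20.5, 20.97 and 15.3 CPM in SNA_Saline, 1.29, 4.17 and 2.31 in Sham_Saline, 3.39, 0.683 and 0.645 in DCA and 1.66, 0.379 and 0.806 in LAM. SNA_Saline lay above all other samples, but 1 DCA and 1 LAM sample, both of lane 1, were higher than the rest of their groups, and the difference of 1.86 ± 0.80 (SE) had an edgeR adjusted p of 0.132. Gap43, a growth-cone phosphoprotein, was at 309, 300.5 and 304 CPM in SNA_Saline, 179, 255 and 264 in Sham_Saline, 220.1, 201 and 231 in DCA and 222, 219 and 226 in LAM. Its difference was 0.42 ± 0.17 (SE; edgeR adjusted p = 0.115), and SNA_Saline again lay above the other 9 samples. Ankrd1 (3.17, edgeR adjusted p = 0.147), Arg1 (1.70, edgeR adjusted p = 0.368) and Stmn4 (0.90, edgeR adjusted p = 0.0504) also stayed outside the threshold.

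AP-1 and the related cyclic AMP response element are the sequences that Jun, Atf3 and Crem are known to bind, and all 3 had positive differences. Promoter windows from RefSeq (GRCm38.p6, 250 bases before to 50 after each start) were matched by symbol for 11364 of 15719 gene symbols. The AP-1 letters TGANTCA (either strand) occurred in 7.10% of the 183 windows of positive genes and in 5.31% of all 14574 windows. The cyclic AMP letters TGACGTCA, which read the same on both strands and do not overlap the AP-1 letters, occurred in 4.37% and 2.86%. A match says only that the letters are there. A search of Atf3, Jun, Gadd45a, Flrt3, Fst, Sema6a, Csf1, Smad1 and Klf6 found neither set of letters before the start in a matched window. The stretches of 3 positive genes are shown because their windows hold such letters near the start, in capitals, 5′ to 3′ on the strand of the gene.
Srxn1 (chr2:152105449-152105515, plus strand): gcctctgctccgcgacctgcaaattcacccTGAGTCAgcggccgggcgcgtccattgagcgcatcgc
Plaur (chr7:24462384-24462450, plus strand): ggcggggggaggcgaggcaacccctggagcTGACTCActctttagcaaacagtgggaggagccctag
Areg (chr5:91139508-91139575, plus strand): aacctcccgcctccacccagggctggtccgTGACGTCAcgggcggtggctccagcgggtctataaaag

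Secreted signals of neurons and their neighbours contributed few genes but large differences. Of 12 measured neuropeptides, Npy and Adcyap1 passed, both positive, against 1.23% of all genes, and the median difference of the 12 was 0.19. Adcyap1 encodes PACAP, a peptide known to rise in injured sensory neurons, and was at 398, 386 and 293 CPM in SNA_Saline, 116, 102 and 130.1 in Sham_Saline, 94.6, 104 and 71.4 in DCA and 104, 102 and 95.4 in LAM. Its SNA_Saline samples lay above all others, and the difference was 1.79 ± 0.22 (SE, log2; edgeR adjusted p = 4.98e-04). Npy, a peptide that is nearly absent from uninjured sensory neurons, was at 11.9, 9.73 and 9.55 CPM in SNA_Saline, 0.286, 1.81 and 1.02 in Sham_Saline, 0.792, 0.342 and 0.322 in DCA and 0.414, 0.217 and 0.705 in LAM, a difference of 3.20 ± 0.77 (SE; edgeR adjusted p = 0.0474, blocked 0.0855) that did not pass in 10 of 21 alternative fits that tested it. Gal and Nts had 0.97 and 1.30 without passing, and Calca and Tac1, the peptides of nociceptors, had 0.10 and 0.21.

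The epidermal growth factor, interleukin-6 and activin lists gave 1 or 2 genes each. Areg, an epidermal growth factor ligand, was at 9.50, 7.89 and 6.27 CPM in SNA_Saline, 0.763, 1.18 and 0.950 in Sham_Saline, 0.415, 0.683 and 0.443 in DCA and 0.104, 0.650 and 0.336 in LAM. SNA_Saline stood apart and the difference was 2.72 ± 0.54 (SE, log2; edgeR adjusted p = 0.0243), and it was the only gene past the threshold among 16 of its family, in which the median was 0.12. Il6, a cytokine that signals through Stat3, rested on 2 to 61 counts a sample and was at 3.28 to 4.54 CPM in SNA_Saline, 0.524 to 0.547 in Sham_Saline, 0.0754 to 0.512 in DCA and 0.163 to 0.414 in LAM. It differed by 3.26 ± 0.63 (SE; edgeR adjusted p = 0.0200), and was the only such gene of 16 in the interleukin-6 and Stat3 list, in which Lif had -0.81 and Socs3 had 0.53. Fst, which encodes the activin antagonist follistatin, was at 24.6 to 31.6 CPM in SNA_Saline, 7.96 to 8.96 in Sham_Saline, 3.91 to 4.70 in DCA and 4.61 to 6.73 in LAM, a difference of 2.08 ± 0.24 (SE; edgeR adjusted p = 2.83e-04). In Areg, Il6 and Fst each Sham_Saline sample lay above all of DCA and LAM.

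Neurotrophins moved in both directions. Bdnf was at 125, 119 and 120.3 CPM in SNA_Saline, 64.5, 59.5 and 59.6 in Sham_Saline, 48.9, 44.7 and 32.2 in DCA and 52.8, 52.7 and 47.7 in LAM, with SNA_Saline above the others, a difference of 1.27 ± 0.20 (SE, log2; edgeR adjusted p = 0.00300). Its Sham_Saline samples lay above all of DCA and LAM. Ntf3, which encodes neurotrophin-3, a survival factor of proprioceptive neurons, was at 0.198, 0.540 and 0.285 CPM in SNA_Saline, 1.10, 1.85 and 1.29 in Sham_Saline, 1.36, 1.195 and 1.37 in DCA and 1.76, 1.14 and 1.14 in LAM. SNA_Saline was the low group and the other 3 overlapped, and the difference was -2.17 ± 0.48 (SE; edgeR adjusted p = 0.0350, blocked 0.0687) on a mean of 21 counts, with no call in 11 of the 20 alternative fits that tested it. Gfra1, the receptor subunit for GDNF, lay at 335 to 372 CPM in SNA_Saline, 168 to 201 in Sham_Saline, 159.5 to 216 in DCA and 171 to 180.1 in LAM, a difference of 0.94 ± 0.17 (SE; edgeR adjusted p = 0.0116). Among receptors that did not pass, Ngfr had -0.73 and Ret 0.12.

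Receptors on the neuron surface were led by Gpr151, an orphan receptor that couples to inhibitory G proteins and is known from injured ganglia. It was at 36.4, 29.6 and 30.7 CPM in SNA_Saline, 5.05, 6.15 and 5.23 in Sham_Saline, 2.45, 2.31 and 1.61 in DCA and 2.17, 1.57 and 1.95 in LAM. As in Atf3, Sham_Saline lay between SNA_Saline and the spinal groups (Sham_Saline over LAM 1.55, edgeR adjusted p = 0.00148), and DCA and LAM overlapped. The difference was 2.39 ± 0.26 (SE, log2; edgeR adjusted p = 2.02e-04). Npy1r, a receptor of neuropeptide Y, was at 63.9 to 70.9 CPM in SNA_Saline, 26.3 to 39.1 in Sham_Saline, 27.2 to 37.4 in DCA and 36.1 to 43.4 in LAM, a difference of 1.23 ± 0.21 (SE; edgeR adjusted p = 0.00785). Oprl1, the nociceptin receptor, went the other way, at 12.9, 16.3 and 12.97 CPM in SNA_Saline, 24.4, 25.6 and 22.7 in Sham_Saline, 26.9, 26.98 and 24.3 in DCA and 27.2, 25.6 and 25.2 in LAM. All 3 SNA_Saline samples were below the other 9, and DCA and LAM were level. The difference was -0.79 ± 0.17 (SE; edgeR adjusted p = 0.0310), a call absent from 9 of 22 alternative fits. The list of 21 neuropeptide and inhibitory receptors had a median of -0.11, with 10 members above 0 and 11 below. Acvr1, a receptor for bone morphogenetic proteins and activins, lay at 32.6 to 40.7 CPM in SNA_Saline, 19.3 to 24.3 in Sham_Saline, 18.01 to 19.7 in DCA and 18.6 to 19.5 in LAM and differed by 0.80 ± 0.16 (SE; edgeR adjusted p = 0.0222).

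Chemokines and genes of the tumour necrosis factor and interleukin-1 systems had 6 positive genes of 25 measured (Ccl2, Ccl7, Ccl12, Cxcl12, Il1r1 and Csf1) and 0 negative, against 1.23% and 0.388% of all genes, with a median difference of 0.72. This median was made on both sides, with 0.51 in SNA_Saline over Sham_Saline and -0.31 in DCA over LAM. Csf1, the growth factor of macrophages and microglia that injured sensory neurons make, was at 62.2, 59.1 and 59.8 CPM in SNA_Saline, 20.6, 26.9 and 22.3 in Sham_Saline, 14.9, 15.3 and 15.9 in DCA and 13.4, 16.8 and 15.3 in LAM. SNA_Saline was more than 2-fold above all other samples, DCA and LAM overlapped, and the difference was 1.36 ± 0.18 (SE, log2; edgeR adjusted p = 0.00101). Each Sham_Saline sample lay above all of DCA and LAM. Il1r1, the receptor of interleukin-1, lay at 16.9 to 17.4 CPM in SNA_Saline, 8.14 to 13.1 in Sham_Saline, 8.14 to 10.8 in DCA and 11.2 to 12.9 in LAM, a difference of 1.03 ± 0.23 (SE; edgeR adjusted p = 0.0350, blocked 0.0576).

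Ccl2, which draws monocytes, was less clear in its source. It was at 5.87, 6.16 and 4.56 CPM in SNA_Saline, 2.38, 3.28 and 2.99 in Sham_Saline, 1.92, 1.37 and 1.65 in DCA and 4.14, 3.20 and 2.45 in LAM. DCA was the group farthest from the others, on the low side, but the SNA_Saline samples also lay above all samples of the other groups. Its difference of 1.85 ± 0.36 (SE, log2; edgeR adjusted p = 0.0200) joined 0.93 in SNA_Saline over Sham_Saline with -0.92 in DCA over LAM, and neither component passed (edgeR adjusted p = 0.0531 and 0.624). Ccl7, its neighbour on chromosome 11 with a like function, was at 6.400, 5.62 and 4.06 CPM in SNA_Saline, 0.953, 1.35 and 1.97 in Sham_Saline, 1.28, 1.195 and 1.53 in DCA and 2.90, 1.95 and 2.08 in LAM, with SNA_Saline highest and a difference of 2.67 ± 0.51 (SE; edgeR adjusted p = 0.0188). Of 16 macrophage markers 0 passed in edgeR, 2 had an unadjusted p under 0.05 and DESeq2 called 1, and their summed level ran from 222 to 260 CPM in SNA_Saline, 219 to 265 in Sham_Saline, 208 to 263 in DCA and 222 to 302 in LAM. The part of macrophage number in the chemokine differences was not tested.

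Interferon-stimulated genes had the largest median difference of the 33 pathway lists, 1.04, and all 30 measured members lay above 0, although only Ifit1 and Oasl2 passed in edgeR, against 1.61% of all genes. An unadjusted p under 0.05 was found in 21 of the 30, against 31.4% of all genes. The shift was again made on both sides, with a median log2 change of 0.66 in SNA_Saline over Sham_Saline and -0.35 in DCA over LAM. The mean log2 CPM over the list was 4.16, 4.10 and 3.77 in SNA_Saline, 3.36, 3.33 and 3.48 in Sham_Saline, 3.56, 3.22 and 3.21 in DCA and 3.47, 3.71 and 3.82 in LAM. Thus DCA replicate 1 lay within LAM, and LAM replicate 3 exceeded SNA_Saline replicate 3. In the other sciatic pair the list stood at 3.90, 3.90 and 3.80 in SNA_NAC and at 3.46, 3.39 and 4.37 in Sham_H2O2, where replicate 3 was the highest of all 18 samples. DESeq2 called 16 of the 30, against 12.4% of all genes, and the fit with GC and length offsets 10, against 5.09%. Without Sham_Saline replicate 1 there were 17 (29.2% of all genes), without SNA_Saline replicate 3 there were 7 (3.36% of all genes), without Sham_Saline replicate 3 or DCA replicate 1 there were 2, and without any other single library of the 12, or with the lane block, there were 0. The list's median stayed between 0.64 and 1.18 in the fits tried.

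Ifit1, an RNA-binding protein that blocks viral translation, was at 87.5, 104 and 60.4 CPM in SNA_Saline, 38.4, 29.4 and 34.7 in Sham_Saline, 33.4, 26.3 and 22.6 in DCA and 30.7, 38.7 and 43.4 in LAM. SNA_Saline lay above the other samples, with a spread of nearly 2-fold, and the difference was 1.76 ± 0.41 (SE, log2; edgeR adjusted p = 0.0430, blocked 0.0770), a call that 13 of 22 alternative fits did not make. Oasl2, of the oligoadenylate synthetase family, was at 77.6 to 95.7 CPM in SNA_Saline, 48.8 to 65.6 in Sham_Saline, 44.6 to 60.5 in DCA and 63.5 to 69.2 in LAM, a difference of 0.95 ± 0.21 (SE; edgeR adjusted p = 0.0339, blocked 0.0573). Other members with large values that did not pass were Iigp1 (1.92, edgeR adjusted p = 0.0879), Ifi44 (1.77, 0.0631), Gbp2 (1.72, 0.0733) and Usp18 (1.48, 0.0837). Gbp2 had 34.1, 33.7 and 25.5 CPM in SNA_Saline and 18.8, 46.3 and 22.8 in LAM, against 16.6, 13.1 and 19.9 in Sham_Saline and 21.7, 14.5 and 13.98 in DCA, so in this gene LAM overlapped all other groups. Irf7, Isg15 and Irf1, which interferon also induces, had 0.01, 0.04 and 0.05.

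The interferon-stimulated response element is the sequence through which interferon-activated factors act on these genes. Its core, a pair of GAAA repeats with any 2 bases between them (either strand, sharing no stretch with the AP-1 letters), was found in 57.7% of the 26 RefSeq windows of the list, in 2.99% of all 14574 windows and in 3.28% of the 183 windows of positive genes. The AP-1 letters occurred in 23.1% of the same 26 windows, against 5.31% of all windows and 7.10% of those of positive genes. The stretch of the Ifit1 promoter is given because this list had the largest shift and Ifit1 is its largest called member. Capitals mark 1 match to the core, which here reads in its reverse complement, a pair of TTTC repeats. Another match in the same stretch, tttcactttc at 104 to 95 bases before the start, is left in lower case.
Ifit1 (chr19:34640774-34640843, plus strand): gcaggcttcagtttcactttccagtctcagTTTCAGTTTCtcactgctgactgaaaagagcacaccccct

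**Figure D4:**
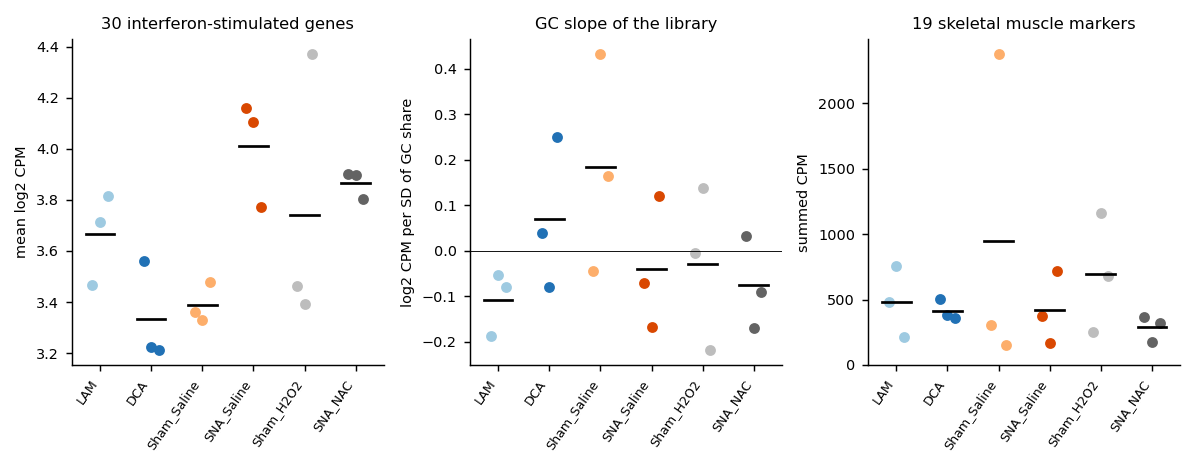
Mean log2 CPM over 30 interferon-stimulated genes (left), slope of log2 CPM on GC share per SD of GC share (middle) and summed CPM of 19 skeletal muscle markers (right) in each of the 18 libraries by group, with bars for group means. The interferon list was lowest in DCA replicates 2 and 3, at 3.22 and 3.21, and highest in Sham_H2O2 replicate 3, at 4.37, and Sham_Saline replicate 2 stands out at a GC slope of 0.43 and a muscle level of 2378 CPM.

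Membrane and adhesion genes outside these families gave some of the clearest separations. Sema6a, a transmembrane semaphorin of axon guidance, was at 91.5, 104 and 79.2 CPM in SNA_Saline, 24.4, 20.9 and 21.4 in Sham_Saline, 12.7, 15.1 and 12.7 in DCA and 14.4, 11.5 and 14.6 in LAM. The SNA_Saline samples were over 3-fold above every other sample, Sham_Saline lay above both spinal groups, and the difference was 2.05 ± 0.19 (SE, log2; edgeR adjusted p = 4.34e-05). It was the only 1 of 34 measured axon guidance genes to pass, with a list median of -0.10. Procr, the endothelial protein C receptor, was at 31.2 to 36.00 CPM in SNA_Saline, 4.004 to 7.92 in Sham_Saline, 3.10 to 4.60 in DCA and 2.69 to 4.10 in LAM, a difference of 2.38 ± 0.32 (SE; edgeR adjusted p = 0.00101). Steap1, a metalloreductase of the plasma membrane, lay at 15.5 to 19.2 CPM in SNA_Saline, 3.91 to 5.31 in Sham_Saline, 3.43 to 4.71 in DCA and 5.07 to 5.44 in LAM, and differed by 2.26 ± 0.23 (SE; edgeR adjusted p = 9.81e-05), with -0.41 in DCA over LAM. Rgs20, a regulator that switches off G-protein signals, was at 11.1 to 14.9 CPM in SNA_Saline, 4.28 to 4.86 in Sham_Saline, 2.10 to 3.92 in DCA and 4.16 to 5.38 in LAM, a difference of 2.10 ± 0.28 (SE; edgeR adjusted p = 0.00101).

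Tmem88b had the largest positive difference among genes with at least 50 counts on average. It encodes a membrane protein best known from oligodendrocytes, and was listed here with central glia markers. The samples were at 26.2, 23.99 and 21.4 CPM in SNA_Saline, 4.38, 3.96 and 4.48 in Sham_Saline, 1.55, 1.28 and 1.33 in DCA and 2.38, 1.41 and 1.58 in LAM. Sham_Saline lay between SNA_Saline and the spinal groups (Sham_Saline over LAM 1.31, edgeR adjusted p = 0.0148), and the difference was 2.77 ± 0.28 (SE, log2; edgeR adjusted p = 9.81e-05). The other 12 measured members of that list did not pass, with Gfap at 1.41 (edgeR adjusted p = 0.0733) and Cnp at -0.54. Etnppl was at -1.61 (edgeR adjusted p = 0.0625) with DCA as its high group. It was at 5.58, 8.37 and 10.8 CPM in DCA, and its change in DCA over LAM was 1.61 (edgeR adjusted p = 0.172). The list's median was 0.47. Its summed level was 462 to 556 CPM in SNA_Saline, 457 to 525 in Sham_Saline, 407 to 490 in DCA and 412 to 454 in LAM, and its part in the Tmem88b difference was not tested. Mmp16, a membrane-bound matrix protease, lay at 15.6 to 21.9 CPM in SNA_Saline, 5.02 to 10.4 in Sham_Saline, 4.55 to 5.81 in DCA and 5.31 to 5.61 in LAM. It differed by 1.54 ± 0.33 (SE; edgeR adjusted p = 0.0295), a call absent from 9 of 22 alternative fits. Adamts1, a secreted protease of proteoglycans, differed by 1.14 ± 0.26 (SE; edgeR adjusted p = 0.0402, blocked 0.0761). The list of 33 collagen and matrix genes had 3 positive members and 0 negative, against 1.23% and 0.388% of all genes, and a median of 0.04.

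Lists of metabolism, stress and activity genes gave few calls each. Srxn1, sulfiredoxin, which restores oxidized peroxiredoxins, was at 1055, 980.0 and 972 CPM in SNA_Saline, 507, 523 and 534 in Sham_Saline, 493, 491 and 468 in DCA and 444, 454 and 447 in LAM. Its replicates were tight in all 4 groups, SNA_Saline was about 2-fold above the rest, and the difference was 0.83 ± 0.12 (SE, log2; edgeR adjusted p = 0.00207), the only call among 30 oxidant defence genes (median 0.03). Each Sham_Saline sample of Srxn1 lay above all of DCA and LAM. Bhlhe41, a repressor in the circadian clock, lay at 112 to 120.0 CPM in SNA_Saline, 54.4 to 60.3 in Sham_Saline, 37.8 to 55.9 in DCA and 55.9 to 59.8 in LAM, a difference of 1.28 ± 0.17 (SE; edgeR adjusted p = 0.00101). It too was alone in its list, since Per1 had -0.57, Dbp 0.13 and Nr1d1 -1.62 without passing.

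Smaller differences were found in Asns, which makes asparagine and is induced in amino acid stress (0.54 ± 0.12, SE; edgeR adjusted p = 0.0386, blocked 0.0690), in Sqle (0.57 ± 0.12; edgeR adjusted p = 0.0310, blocked 0.0532) and Hsd17b7 (0.85 ± 0.17; edgeR adjusted p = 0.0251) of cholesterol synthesis, and in Tet3, which oxidizes methylcytosine (0.98 ± 0.22; edgeR adjusted p = 0.0386, blocked 0.0690). The Tet3 call was absent from 13 of 22 alternative fits. Asns lay at 254 to 276 CPM in SNA_Saline, 198 to 215 in Sham_Saline, 198 to 239 in DCA and 244 to 250.1 in LAM, and here Sham_Saline was lower than LAM in each sample, so both controls entered the difference. In the cholesterol list of 28 genes, 18 had an unadjusted p under 0.05 (31.4% of all genes did) in both directions, from -1.59 in Mvd to 0.85 in Hsd17b7, and the median was 0.14. Immediate early genes had 2 positive members of 21 measured, against 1.23% of all genes. They were the MAP kinase phosphatase Dusp1 (0.71 ± 0.16, SE; edgeR adjusted p = 0.0386, blocked 0.0690) and the antiproliferative Btg2 (0.86 ± 0.19; edgeR adjusted p = 0.0350). The Btg2 call was absent from 12 of 22 alternative fits. Dusp1 lay at 31.6 to 38.3 CPM in SNA_Saline, 18.5 to 25.01 in Sham_Saline, 22.3 to 24.2 in DCA and 22.8 to 23.5 in LAM, with a change of 0.00 in DCA over LAM.

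On the negative side, sodium and calcium channels had the lowest median of the 33 pathway lists, and few members of any list passed. Of 29 sodium and calcium channel genes 1 passed, the calcium channel subunit Cacna2d2, against 1.61% of all genes, and the list median was -0.53. Cacna2d2 was at 11.3, 11.1 and 13.9 CPM in SNA_Saline, 23.1, 18.99 and 19.3 in Sham_Saline, 15.7, 20.4 and 19.2 in DCA and 13.4, 15.6 and 14.9 in LAM. SNA_Saline was lowest but its replicate 3 reached LAM replicate 1, and the difference was -1.08 ± 0.24 (SE, log2; edgeR adjusted p = 0.0370, blocked 0.0727). The call was absent from 13 of 22 alternative fits. The related subunit gene Cacna2d1 pointed the other way at 0.91 (edgeR adjusted p = 0.0881). The nociceptor channels Scn9a, Scn10a and Scn11a had 0.21, -0.57 and -0.28. With GC and length offsets the list median was -0.10, and in lane 3 it was 0.11 against -0.56 and -0.62 in lanes 1 and 2.

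Potassium and HCN channels had 1 negative gene of 43 measured, against 0.388% of all genes, and a median of -0.34, which was -0.06 with GC and length offsets. That gene was Kcnk18, which encodes the background channel TRESK of sensory neurons. Its samples were at 4.09, 3.13 and 5.49 CPM in SNA_Saline, 11.96, 6.82 and 7.80 in Sham_Saline, 7.50, 8.54 and 8.10 in DCA and 6.62, 6.29 and 5.67 in LAM, with SNA_Saline below all others, and the difference was -1.43 ± 0.34 (SE, log2; edgeR adjusted p = 0.0447, blocked 0.0770), a call absent from 14 of 22 alternative fits. Kcna2 and Hcn2 had -1.83 and -0.97 without passing (edgeR adjusted p = 0.186 and 0.108). Among 33 genes of synaptic vesicles and exocytosis, Syt7, a slow calcium sensor of release, was at 108 to 129 CPM in SNA_Saline, 152 to 176 in Sham_Saline, 151 to 173 in DCA and 143 to 146 in LAM, a difference of -0.68 ± 0.15 (SE; edgeR adjusted p = 0.0384, blocked 0.0708). Exoc3l lay at 1.30 to 2.07 CPM in SNA_Saline, 2.85 to 5.77 in Sham_Saline, 2.56 to 3.38 in DCA and 1.86 to 2.39 in LAM and differed by -1.82 ± 0.39 (edgeR adjusted p = 0.0296, blocked 0.0545). The calls of Syt7 and Exoc3l were each absent from 12 of 22 alternative fits. Syt4, a synaptotagmin that calcium does not bind in the usual way, was positive (1.05 ± 0.23; edgeR adjusted p = 0.0307), a call absent from 9 of 22 alternative fits.

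Several of the largest negative differences came from a high sham group. Lrrc24, a leucine-rich repeat membrane protein, was at 2.24, 1.19 and 2.92 CPM in SNA_Saline, 3.91, 8.76 and 4.82 in Sham_Saline, 2.94, 2.39 and 5.04 in DCA and 1.86, 1.36 and 2.01 in LAM. Sham_Saline was highest, through its replicate 2, SNA_Saline overlapped LAM, and the difference was -2.43 ± 0.58 (SE, log2; edgeR adjusted p = 0.0448, blocked 0.0770). Arhgap39, its neighbour on chromosome 15 and a regulator of small GTPases, lay at 19.7 to 26.4 CPM in SNA_Saline, 31.8 to 57.2 in Sham_Saline, 26.5 to 43.1 in DCA and 16.5 to 22.4 in LAM (-1.59 ± 0.37, SE; edgeR adjusted p = 0.0410, blocked 0.0740). Foxp4, a forkhead factor, had -2.32 ± 0.52 (edgeR adjusted p = 0.0350, blocked 0.0690), and Cabin1, a calcineurin inhibitor, had -1.68 ± 0.40 (edgeR adjusted p = 0.0450, blocked 0.0770). Bcl9l, a co-activator of beta-catenin, had -2.52 ± 0.51 (edgeR adjusted p = 0.0259). The long RNA gene Gm13425 (-2.25 ± 0.55; edgeR adjusted p = 0.049965, blocked 0.0882) overlaps Prdm12, also among the negative genes, on the opposite strand over 553 bases. In none of these 6 genes did SNA_Saline against DCA pass, with edgeR adjusted p-values from 0.216 in Foxp4 to 0.517 in Lrrc24, and each missed the threshold in 7 to 13 of its alternative fits.

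A3galt2, a glycolipid galactosyltransferase, was the negative gene that passed in every alternative fit. It was at 19.9, 21.5 and 25.2 CPM in SNA_Saline, 37.8, 38.2 and 35.8 in Sham_Saline, 26.4, 29.5 and 31.6 in DCA and 23.2, 26.9 and 22.9 in LAM. The Sham_Saline samples were tight and above all others, DCA lay between them and SNA_Saline, and the difference was -1.01 ± 0.17 (SE, log2; edgeR adjusted p = 0.00862). The component changes were -0.75 in SNA_Saline over Sham_Saline, 0.26 in DCA over LAM and 0.62 in Sham_Saline over LAM. Prrt3, at 5.73 to 8.13 CPM in SNA_Saline, 10.7 to 25.01 in Sham_Saline, 11.6 to 16.9 in DCA and 8.49 to 11.5 in LAM, had a difference of -1.72 ± 0.42 (SE; edgeR adjusted p = 0.0499, blocked 0.0864) and lost it in 15 of 22 alternative fits.

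Dorsal column injury or laminectomy was the farthest group in 8 of the 254 genes. Plin4, a coat protein of lipid droplets, was at 1.19, 1.08 and 2.99 CPM in SNA_Saline, 3.38, 6.65 and 1.83 in Sham_Saline, 4.94, 8.45 and 10.5 in DCA and 2.48, 2.82 and 2.92 in LAM. DCA was the high group, with only Sham_Saline replicate 2 inside its range, and the difference was -2.68 ± 0.61 (SE, log2; edgeR adjusted p = 0.0386, blocked 0.0585). The call was absent from 11 of 21 alternative fits that tested it. DCA over LAM was 1.52 and did not pass by itself (edgeR adjusted p = 0.624). Plin4 was listed both with adipocyte markers and with glucocorticoid-responsive genes. Of the 11 measured adipocyte markers, 7 lay below 0, Plin4 was the only 1 to pass, and the median was -0.27. Cidea had -1.27 (edgeR adjusted p = 0.0978), Cfd -1.01, Adipoq -0.27 and Fabp4 0.73. The summed markers were at 81.5 to 110 CPM in SNA_Saline, 84.7 to 135 in Sham_Saline, 67.1 to 81.6 in DCA and 63.4 to 106 in LAM, and their part in the Plin4 difference was not tested. Chad, the matrix protein chondroadherin, also had DCA as its farthest group, although Sham_Saline overlapped it, at 0.660 to 1.35 CPM in SNA_Saline, 1.70 to 2.86 in Sham_Saline, 2.11 to 2.70 in DCA and 0.596 to 1.24 in LAM, a difference of -2.55 ± 0.47 (SE; edgeR adjusted p = 0.0143).

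Laminectomy stood apart in Kcnk12, a tandem-pore potassium channel gene, with 0.264, 0.324 and 0.784 CPM in SNA_Saline, 1.001, 2.91 and 1.02 in Sham_Saline, 0.867, 0.683 and 1.17 in DCA and 0, 0.163 and 0.235 in LAM. These rest on 0 to 69 counts a sample, LAM was near the limit of detection, and the difference of -4.27 ± 0.80 (SE, log2; edgeR adjusted p = 0.0149) was the largest negative one. Hvcn1, a proton channel of immune cells, lay at 4.32 to 4.99 CPM in SNA_Saline, 5.50 to 8.34 in Sham_Saline, 6.14 to 7.17 in DCA and 3.52 to 4.73 in LAM, a difference of -1.16 ± 0.28 (SE; edgeR adjusted p = 0.0449, blocked 0.0760). Itgae, an integrin of resident lymphocytes, had LAM as its high group, at 1.08 to 1.64 CPM in SNA_Saline, 0.477 to 0.884 in Sham_Saline, 0.683 to 1.01 in DCA and 1.54 to 1.84 in LAM, a difference of 1.78 ± 0.41 (SE; edgeR adjusted p = 0.0401, blocked 0.0637). The Itgae call was absent from 14 of 20 alternative fits that tested it, where its difference fell as low as 0.34. That of Hvcn1 was absent from 13 of 22. Rdh10, a retinol dehydrogenase, lay at 14.8 to 16.96 CPM in SNA_Saline, 8.89 to 11.7 in Sham_Saline, 9.79 to 12.4 in DCA and 13.6 to 17.7 in LAM, with Sham_Saline and DCA both below LAM. Its difference of 1.07 ± 0.22 (SE; edgeR adjusted p = 0.0270) joined 0.62 in SNA_Saline over Sham_Saline with -0.45 in DCA over LAM.

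**Figure D5:**
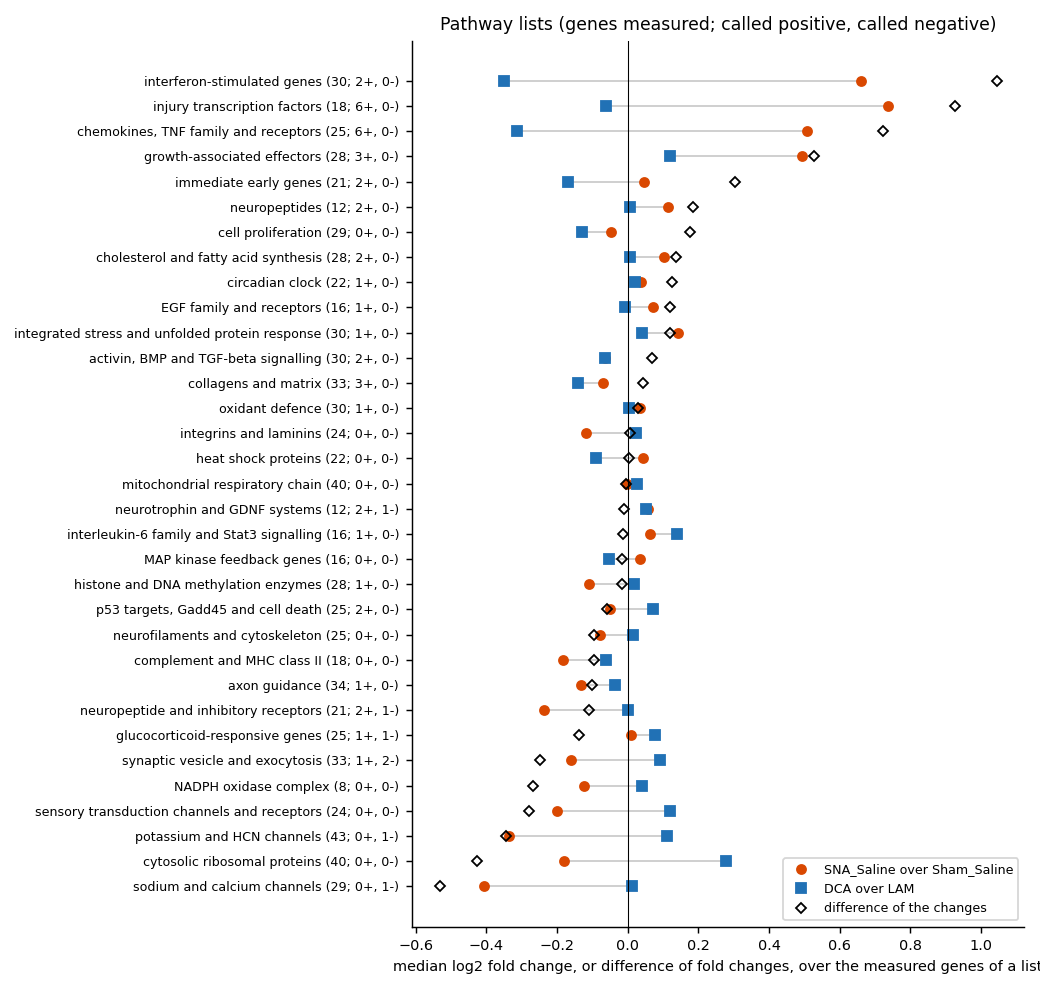
Median log2 fold change of the measured genes of each of 33 pathway lists in SNA_Saline over Sham_Saline (circles) and in DCA over LAM (squares), and the median difference of the changes (open diamonds), with the number measured and called beside each name. Interferon-stimulated genes, injury transcription factors and chemokines have the largest medians, at 1.04, 0.93 and 0.72, and sodium and calcium channels the lowest at -0.53.

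Of the 33 pathway lists, 10 had no member past the threshold in edgeR. Beside their counts below stand the 31.4% of all genes at an unadjusted p under 0.05 and the 12.4% called by DESeq2. For sensory transduction channels and receptors, 6 of 24 had an unadjusted p under 0.05 and DESeq2 called 3 negative, with a median of -0.28. Cytosolic ribosomal proteins had a median of -0.43 over 40 genes, 14 with an unadjusted p under 0.05 and 3 called by DESeq2, and their lane medians were 0.21, -0.56 and -0.81, so the sign depended on the lane. Mitochondrial respiratory chain genes (40, median -0.01), neurofilament and cytoskeletal genes (25, median -0.09), heat shock proteins (22, median 0.00) and MAP kinase feedback genes (16, median -0.02) had 13, 6, 4 and 2 at an unadjusted p under 0.05 and 2, 2, 1 and 0 in DESeq2. The NADPH oxidase list (8, median -0.27), integrins and laminins (24, median 0.01), complement and MHC class II (18, median -0.10) and cell proliferation (29, median 0.18) had 4, 8, 1 and 6 at an unadjusted p under 0.05, and 1, 4, 1 and 1 in DESeq2.

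Markers of the ganglion's cell types were measured in all groups and seldom passed. Their counts too stand against 31.4% of all genes at an unadjusted p under 0.05 and 12.4% in DESeq2. All 18 sensory neuron markers were detected, with 0 past the threshold in edgeR, 9 at an unadjusted p under 0.05, 2 in DESeq2 and a median of -0.17. Their summed level was 12996 to 13839 CPM in SNA_Saline, 13300 to 17820 in Sham_Saline, 13691 to 14873 in DCA and 13119 to 13614 in LAM. Satellite glial, Schwann, endothelial and mural, and fibroblast lists had medians of 0.23, -0.41, -0.54 and 0.09 with 0 called in edgeR, 5, 7, 11 and 2 at an unadjusted p under 0.05, and 1, 1, 2 and 2 in DESeq2. The 19 skeletal muscle markers had a median of -1.04 with 0 at an unadjusted p under 0.05, and this median was 1.37 without Sham_Saline replicate 2.

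The pair of SNA_NAC and Sham_H2O2 shares no sample with the 4 groups, and both of its arms carry an added agent. Its samples did enter the fit that chose the genes, through the shared estimate of the spread. Of the 193 positive genes, 192 were higher in SNA_NAC than in Sham_H2O2, where 49.9% of all genes were, and 92 (47.7%) passed in that direction with an edgeR adjusted p under 0.05, against 1.00% of all genes tested. Of the 61 negative genes, 54 were lower, and 5 (8.20%) passed, against 0.127% of all genes. Both of these called shares were lower in a fit of the pair's groups only. Gadd45a was at 232 ± 15.4 CPM (SD, n = 3) in SNA_NAC and 68.04 ± 10.5 in Sham_H2O2, Gpr151 at 30.1, 36.5 and 31.3 CPM in SNA_NAC and 11.4, 9.87 and 8.42 in Sham_H2O2 and Sema6a at 90.1, 102 and 97.1 CPM in SNA_NAC and 31.4, 25.8 and 27.3 in Sham_H2O2, each with no overlap and with log2 changes of 1.78, 1.72 and 1.78 (edgeR adjusted p = 2.12e-06, 4.09e-05 and 2.12e-06). Of the named genes with a high Sham_Saline, Arhgap39, Cabin1, Foxp4, Gm13425 and Bcl9l had log2 changes in this pair of -0.03, 0.01, -0.05, -0.04 and 0.17, with edgeR adjusted p-values of at least 0.935. Lrrc24 had -0.27 (edgeR adjusted p = 0.896) and A3galt2 -0.47 (edgeR adjusted p = 0.0949). Ccl2 and Ccl7 had 0.26 and 0.55 (edgeR adjusted p = 0.813 and 0.692). This pair has no dorsal column counterpart, so it bears on the sciatic terms of the difference and not on DCA or LAM, and without single samples of the pair the positive share ran from 31.1% (without Sham_H2O2 replicate 2) to 43.5%. The negative share was 0% without Sham_H2O2 replicate 2 or SNA_NAC replicate 3, 1.64% without replicate 1 of either group, 3.28% without SNA_NAC replicate 2 and 9.84% without Sham_H2O2 replicate 3. The all-gene shares of 1.00% and 0.127% belong to the main fit, and the number called over all genes was also lower in these smaller fits.

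Of the 64 genes chosen for naming, 14 overlap another gene of the count table on the opposite strand, among them Jun, Gadd45a, Flrt3, Gfra1, Tet3, Syt4, Lrrc24 and Plin4. Libraries were stranded, but how the counting used strand is not given in the sources used here, so reads of such partners may be mixed. The replicates were separate pools of mice, and 3 against 3 samples cannot give an exact permutation p below 0.1, so single genes were compared through the model fitted across all genes.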

How the data were processed

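RNA was sequenced from pooled dorsal root ganglia of mice, 3 samples in each of 6 groups, as single-end reads of stranded mRNA libraries, per the labels' protocols. The authors deposited whole-number read counts and FPKM values (fragments scaled to gene length and library size) per gene on mm10. The submitters' processing notes name TopHat2 2.0.12, Bowtie2 2.2.3, HTSeq 0.6.0, edgeR 3.8.6 and limma 3.22.7, with no role or order, and the strand setting of the counting is not given in the sources used here.

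The deposited counts were fitted here with edgeR 4.0.16 (quasi-likelihood, TMM, R 4.3.3) on all 18 samples, so the 6 groups share 1 estimate of the spread. The low-count filter kept all 15730 genes, and p-values were adjusted over them by Benjamini-Hochberg at 0.05. Standard errors are the log2 difference divided by the root of the F statistic, CPM values use TMM-scaled library sizes, and log2 CPM uses a prior count of 2. The script was tested on simulated data. Figures were drawn with matplotlib 3.10.9. Coordinates and overlaps are from GENCODE M21 on GRCm38 and promoter stretches from RefSeq.

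The genes named by rule were the 8 largest positive and 8 largest negative differences among genes called with a mean count of at least 50, up to 4 called members of each pathway list, the 3 called genes with the smallest p for each group farthest apart, and Atf3, Jun, Gap43, Sprr1a and Npy. The contrast, the 33 pathway lists and the 10 marker lists were chosen with earlier results of these data known. Some genes, among them 1 that met the rule, are not reported here.

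Replicate numbers are sequencing lanes per the labels, with 6 libraries in each, and each sample is its own pool of mice. Deviations of same-numbered libraries from their group means correlated from -0.65 to 0.54 over 18 pairs of libraries, with a mean of 0.046 and 9 above 0.1. Alternatives were DESeq2 1.42.0, RLE factors, other count filters, only the groups compared, a lane block, other thresholds, limma 3.58.1 on log2(FPKM + 1) and log2(FPKM + 0.1), leaving out each library, and, added after the results had been seen, GC and length offsets.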

Additional observations from a re-analysis of the deposited data

Results flagged for a closer look

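The test of the difference itself between the sciatic and the dorsal column response passed with a positive sign in 193 genes and with a negative sign in 61 genes (edgeR adjusted p under 0.05), which makes these genes ones whose effect differs between the 2 injuries. Among the 193, Gadd45a (2.39 ± 0.18, SE, log2), Sema6a (2.05 ± 0.19) and Steap1 (2.26 ± 0.23) had the smallest p-values, and all 3 passed in each alternative fit. Among the 61, A3galt2 (-1.01 ± 0.17) was the only gene that did so.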

How the results depend on the processing

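The difference was called in 254 genes, 193 positive and 61 negative. DESeq2 gave 1723, 701 and 1022 genes. Only the groups compared gave 151, 123 and 28. The replicate block gave 118, 107 and 11, of which 116 were among the 254 with the same sign. A threshold of 0.10 gave 2398, 933 and 1465, and 0.01 gave 46, 45 and 1. GC and length offsets gave 797, 540 and 257, and with the replicate block 636, 475 and 161. The negative count was 36 with log2(FPKM + 1) and 30 with log2(FPKM + 0.1). Leaving out 1 library gave 55 to 4600 in all, 53 to 1934 positive and 2 to 2666 negative.

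SNA_Saline against Sham_Saline (430) had 863 genes in DESeq2, 822 at 0.10, 188 at 0.01, 1167 with the offsets, 1014 with offsets and replicate block, and 174 to 2548 with 1 library left out. DCA against LAM (0) had 2 in DESeq2 and 1 with offsets and replicate block. SNA_Saline against DCA (465) had 250 at 0.01, 1429 with the offsets, 1327 with offsets and replicate block, and 266 to 406 with 1 library left out. Sham_Saline against LAM (11) had 1141 in DESeq2, 4 with at least 10 counts in every sample, 5 in its groups only, 6 with the replicate block, 5 at 0.01, 5 with log2(FPKM + 1), 26 with the offsets, 23 with offsets and replicate block, and 4 to 5009 with 1 library left out. SNA_NAC against Sham_H2O2 (178) had 281 in DESeq2, 71 in its groups only, 87 at 0.01, 596 with the offsets, 546 with offsets and replicate block, and 88 to 131 with 1 library left out.

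The shares of genes called in that pair are set beside all genes only for the main fit, at 1.00% higher and 0.127% lower. The number called over all genes, given above, also moved, so a changed share is not particular to these genes. Of the 193 positive genes, the share called in that pair (47.7%) was 57.0% in DESeq2, 26.4% in its groups only, 56.5% at 0.10, 33.7% at 0.01, 65.8% with the offsets, 63.2% with offsets and replicate block, and 31.1% to 43.5% with 1 library left out. Of the 61 negative genes, the share (8.20%) was 0% in its groups only, 1.64% with the replicate block, 1.64% at 0.01, 21.3% with the offsets, 21.3% with offsets and replicate block, and 0% to 9.84% with 1 library left out. With the offsets SNA_Saline was farthest in 65.6% and Sham_Saline in 21.3% of the 61 negative genes. The share of positive genes with SNA_Saline farthest stayed between 89.1% and 95.3% when 1 library was left out. The cause of these shifts was not tested. With the replicate block, adjusted p-values are given in the report for the genes named by rule that no longer passed. No called gene named by rule changed sign in any alternative, but 21 of the 43 list medians took both signs over the alternatives. Among them were skeletal muscle (-1.04, and 1.37 without Sham_Saline replicate 2) and Schwann cell markers (-0.41, and 0.09 with offsets and replicate block). The median over all genes (-0.02) was 0.02 without Sham_Saline replicate 1. A list's median over few genes and genes under about 50 counts have wide errors, and the 3 samples of a group limit all calls.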
